A study of Homo sapiens with 4 samples.

Results

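The genes examined here encode the 6 subunits of the origin recognition complex (ORC1 to ORC6), the loading factors CDC6 and CDT1, and geminin (GMNN). They were chosen by gene symbol, with earlier results of these data known, from the deposited table, where all 9 are listed among 23615 genes. RNA-seq was available from K562, an erythroid-like human leukaemia cell line, after 3 h with 5 µM clofarabine in 0.005% DMSO (2 libraries, here C0 and C1) or with DMSO alone (2 libraries, V0 and V1). Clofarabine, a purine nucleoside drug, blocks DNA synthesis once it is phosphorylated in the cell. All 4 libraries come from the same line in the same medium, and the labels do not say whether they are separate cultures, so that p-values cover the spread among these samples alone, which may be technical. Conditions appear in the table as the letters C and V; C was taken as clofarabine and V as vehicle, and every direction would turn round under the opposite reading.

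Replication origins are licensed in G1, when ORC bound to DNA recruits CDC6 and then CDT1, and these together load the MCM helicase. Once S phase begins, CDT1 is degraded or held by geminin, CDC6 and ORC1 are controlled by phosphorylation and degradation, and no new origin is licensed until the next G1. Several of these genes are transcribed under E2F factors, the regulators that switch on the genes of the G1/S transition, while much of the control of CDT1 and geminin acts on the protein, which RNA-seq does not see.

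To show what the promoters of these genes hold, windows from 250 bases before to 50 bases after the start of each gene were read from RefSeq (build GRCh38.p14), which matched all 9 genes with 11 windows, ORC4 and GMNN having more than 1 start. They were searched on both strands for the E2F forms TTTCCCGC, TTTCGCGC, TTTGCCGC and TTTGGCGC. A form was found in 4 of the 9 genes (CDC6, CDT1, GMNN and ORC3), where 3.31% of all 35116 windows held it. Here and below, a gene was counted if any of its windows had a match, while the shares are over single windows. With G also allowed as the last base (TTTCCCGG, TTTCGCGG, TTTGCCGG and TTTGGCGG), a form chosen after the sequences were seen, the same number of genes, 4, had a match, against 6.19% of all windows. The stretches below show these matches in capitals, in 30 bases each, read 5′ to 3′ on the strand of the gene.
CDC6, chr17:40287840-40287869, plus strand: cgaggccgggcTTTGGCGGgaggtgggaac
CDC6, chr17:40287875-40287904, plus strand: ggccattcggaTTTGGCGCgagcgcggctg
CDT1, chr16:88803743-88803772, plus strand: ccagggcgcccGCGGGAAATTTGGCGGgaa
GMNN, chr6:24775322-24775351, plus strand: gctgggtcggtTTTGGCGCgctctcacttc
ORC3, chr6:87590112-87590141, plus strand: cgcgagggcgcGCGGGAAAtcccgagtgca
The CDC6 matches begin 28 bases before and 8 bases into the transcribed part. In CDT1 a reverse-strand match lies directly beside a forward one. The GMNN match belongs to the downstream one of its starts. No window of ORC1, ORC2, ORC4, ORC5 or ORC6 held these exact letters. The ORC1 stretch below reads ATTGGCGC, which differs from the form TTTGGCGC in the first base alone. Near matches were not searched for.

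ORC6, which rose in the data below without an E2F match, and ORC1 are shown with their CCAAT boxes, the letters that NF-Y binds, in capitals on either strand.
ORC6, chr16:46689543-46689572, plus strand: aggaagaccctgATTGGtttgtgggacggt
ORC6, chr16:46689579-46689608, plus strand: gtcctgtcctaaCCAATccagatgcgccgg
ORC1, chr1:52404429-52404458, minus strand: ggggccacgccgATTGGcgcgaagttttct
CCAAT was present in 6 of the 9 genes and in 34.6% of all windows. The 6 genes were ORC6, CDC6 and GMNN, which rose, and ORC1, ORC2 and ORC3, which were not called. The cell cycle homology region, by the letters TTTGAA or TTCGAA, was present in 0 of the 9 genes and in 16.4% of all windows. A match is a run of letters and was not measured as a binding site.

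The question was whether transcripts of the licensing machinery differed with clofarabine. In treated cells the transcripts of 3 of the 9 genes rose: CDC6 by 53.6%, ORC6 by 46.7% and GMNN by 25.6%. None fell, and the other 6 were not called (edgeR quasi-likelihood test, Benjamini-Hochberg adjusted p under 0.05 over all 11761 genes tested). Among all genes tested, 1.54% were called higher and 1.03% lower. All 9 genes passed the filter on low counts, with between 391 and 6977 fragments in a library. The median log2 fold change of the 9 genes was 0.16, beside 0.0020 for all genes tested. In 8 of the 9 genes both clofarabine libraries stood above both DMSO libraries, as in 22.0% of all genes tested, and in 0 of the 9 both stood below, as in 21.3%.

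**Figure D1:**
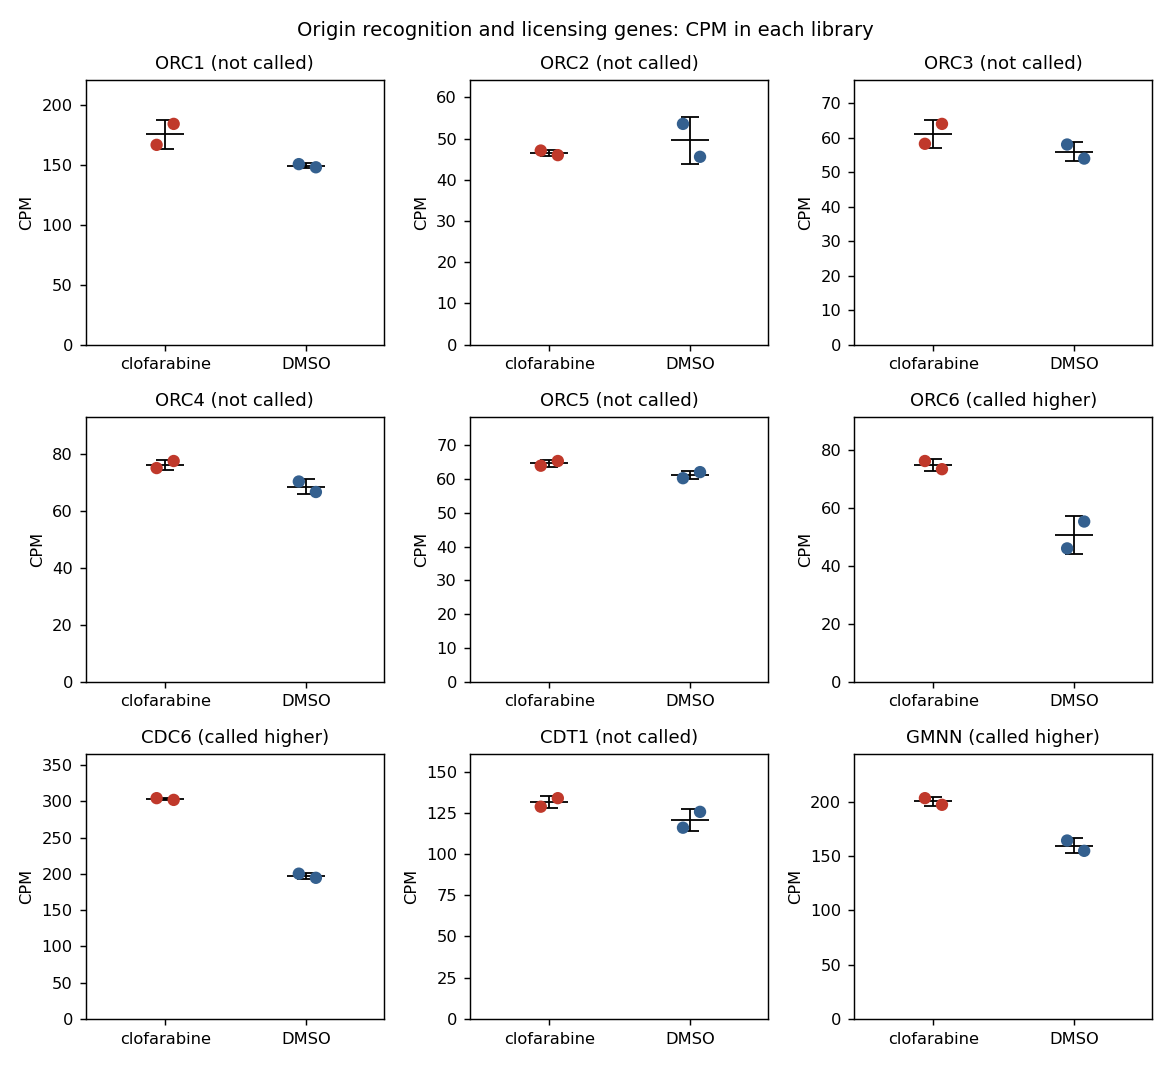
Depth-scaled counts (CPM, vertical axes starting at 0) of the 9 genes in each library, with clofarabine libraries in red and DMSO libraries in blue; points are libraries, and black bars are the mean and SD of 2 libraries. CDC6, ORC6 and GMNN show the widest separation between groups, and ORC2 is the gene whose groups overlap.

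CDC6 is the ATPase that joins ORC at an origin and is needed to load MCM. It had 304 CPM (the gene's fragments relative to the scaled library size) in C0 and 302 CPM in C1, against 200.2 CPM in V0 and 194 CPM in V1. The clofarabine libraries lay within a few CPM of each other and far above the DMSO libraries. The means were 303 ± 1.69 CPM with clofarabine and 197 ± 4.03 CPM with DMSO (SD, n = 2 each), which gives log2 fold change 0.62 (SE 0.065, 95% interval 0.49 to 0.75, edgeR adjusted p = 2.3e-06). By p-value CDC6 was the 3rd of the 181 genes called higher and the 16th of all genes tested. By size of the fold change it was 212th from the top of the genes tested. It kept its call under each of the 19 alternatives, with log2 fold changes between 0.58 and 0.64. The 19 include thresholds of 0.01 and 0.1 on the same fit, and at 0.1 a call cannot be lost.

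ORC6 encodes the smallest subunit, which joins the rest of ORC loosely and also acts in cytokinesis. It had 76.2 CPM in C0 and 73.4 CPM in C1, against 46.0 CPM in V0 and 55.3 CPM in V1. The groups did not overlap, and the spread was wider between the DMSO libraries. Means were 74.8 ± 1.99 CPM with clofarabine and 50.7 ± 6.55 CPM with DMSO (SD, n = 2 each), which gives log2 fold change 0.55 (SE 0.091, 95% interval 0.36 to 0.74, edgeR adjusted p = 0.000836). The log2 fold change was 0.43 without V0 and 0.69 without V1, and the call held in both. It was lost on the log2(FPKM + 1) scale (limma adjusted p = 0.0527), where 0.162% of genes were called higher and CDC6 was the 1 gene of the 9 that was.

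The remaining ORC subunits stood closer to their DMSO levels. ORC1, the subunit that carries the ATPase activity of the complex and whose protein is removed in S phase of human cells, had 166 CPM in C0 and 184 CPM in C1, against 150.4 CPM in V0 and 148 CPM in V1. Its groups did not overlap, but it was not called (log2 fold change 0.24, SE 0.070, 95% interval 0.090 to 0.38, edgeR adjusted p = 0.0821). ORC1 was called under 6 of 19 alternatives. These were no filter, the length trend removed, thinning to equal depth, the replicate block, the fit without C0 and the looser threshold of 0.1. That threshold was applied to the same fit. ORC1 was not called with DESeq2 (DESeq2 adjusted p = 0.239) or on the log2(FPKM + 1) scale (limma adjusted p = 0.255). Its log2 fold change was 0.30 without C0 and 0.16 without C1. ORC4, an ATPase-fold subunit, had 75.1 CPM in C0 and 77.6 CPM in C1, against 70.4 CPM in V0 and 66.7 CPM in V1 (log2 fold change 0.16, 95% interval −0.0071 to 0.32, edgeR adjusted p = 0.385).

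The core subunits ORC2, ORC3 and ORC5, which build the ring around DNA together with ORC1 and ORC4, were not called either. ORC3 had 58.3 CPM in C0 and 64.0 CPM in C1, against 58.1 CPM in V0 and 54.0 CPM in V1, so that C0 and V0 were almost level (log2 fold change 0.13, 95% interval −0.048 to 0.32). The log2 fold change of ORC3 was 0.058 without C1, 0.071 without V1 and 0.20 without C0, and it was called in none of these. ORC5 had 64.0 CPM in C0 and 65.4 CPM in C1, against 60.3 CPM in V0 and 62.1 CPM in V1 (log2 fold change 0.080, 95% interval −0.090 to 0.25). For ORC2 the values were 47.1 CPM in C0 and 46.0 CPM in C1, against 53.6 CPM in V0 and 45.6 CPM in V1. V0 was the high library of ORC2 and the groups overlapped (log2 fold change −0.086, 95% interval −0.28 to 0.11, edgeR adjusted p = 0.762). The intervals of ORC2, ORC3, ORC4 and ORC5 all end below the log2 fold change of 0.62 of CDC6. In GENCODE 29, exons of ORC2 and ORC4 overlap exons of genes on the opposite strand, AC005037.1 for ORC2 and ACVR2A and MBD5 for ORC4. The libraries were directional, but the strand setting of the counting was not stated in the sources used, so some fragments of ORC2 and ORC4 could belong to these genes.

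CDT1 and GMNN encode the loading factor and the inhibitor that binds it. CDT1 had 129 CPM in C0 and 134 CPM in C1, against 116 CPM in V0 and 126 CPM in V1. C0 stood only a little above V1, by less than the DMSO libraries stood apart, and CDT1 was not called (log2 fold change 0.12, SE 0.072, 95% interval −0.030 to 0.27, edgeR adjusted p = 0.50). Its log2 fold change was 0.065 without V0 and 0.17 without V1, and it was called in neither. GMNN had 203 CPM in C0 and 197 CPM in C1, against 164 CPM in V0 and 155 CPM in V1. Both clofarabine libraries of GMNN were higher than both DMSO libraries, with means of 200.4 ± 4.33 CPM with clofarabine and 159.6 ± 6.73 CPM with DMSO (SD, n = 2 each). Its log2 fold change was 0.33 (SE 0.067, 95% interval 0.19 to 0.47, edgeR adjusted p = 0.00725). The GMNN call was lost without V1 (log2 fold change 0.28, edgeR adjusted p = 0.275), on the log2(FPKM + 1) scale (limma adjusted p = 0.157) and on the log2(FPKM + 0.1) scale (limma adjusted p = 0.154).

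The transcript length by which the authors' FPKM values were divided can be read from the table as scaled fragments over FPKM. For GMNN it was 103.5% of the DMSO mean in C0 and 104.9% in C1, against 101.1% in V0 and 98.9% in V1. It was thus higher by 4.25% with clofarabine, or 0.060 on the log2 scale, and 3.68% of 11755 genes had a difference at least as large. For the other 8 genes it lay between 99.3% and 100.4% of the DMSO mean in each library. GMNN is the 1 member in the shortest of 10 equal classes of transcript length, and ORC6 is in the next shortest. The shortest class held 1177 of the 11761 genes tested, and 78 of the 181 genes called higher. With a trend on length removed from each library, GMNN had a log2 fold change of 0.29 (edgeR adjusted p = 0.0021) and ORC6 one of 0.54 (edgeR adjusted p = 1.1e-05), and both stayed called. That fit called more genes higher in all, 288 against 181, and the part of length in these rises was not tested.

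**Figure D2:**
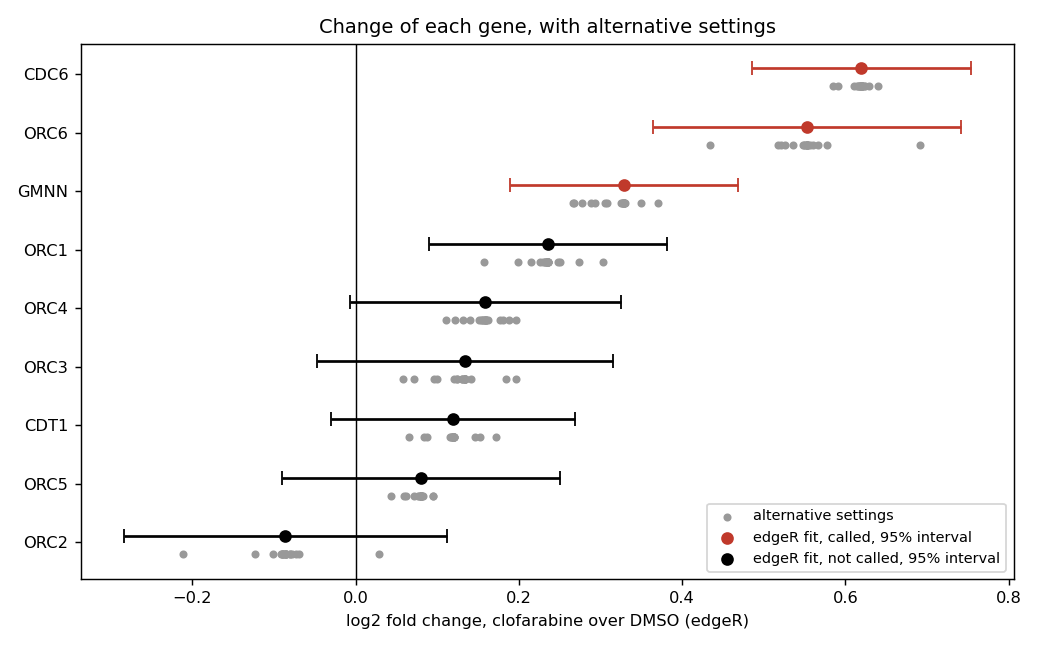
Log2 fold change of clofarabine over DMSO for each of the 9 genes (horizontal axis), with the edgeR estimate and its 95% interval (red where called, black where not) and, under each, the estimates from 19 alternative settings (grey). The settings with thresholds of 0.01 and 0.1 repeat the main estimate. Of the 9 genes, 8 lie right of 0 in every setting drawn, and ORC2 lies left of 0 except when V0 is left out (0.029).

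Ratios within a library do not depend on how libraries are scaled. CDT1 fragments per GMNN fragment came to 0.633 in C0 and 0.679 in C1, against 0.706 in V0 and 0.811 in V1. The ratio was lower in both clofarabine libraries, by 0.21 on the log2 scale (clofarabine minus DMSO −0.21; means −0.61 ± 0.071 with clofarabine and −0.40 ± 0.14 with DMSO, SD, n = 2 each; two-sided exact permutation p = 0.33). With 2 libraries against 2, 0.33 is the smallest p such a test can give. The difference was smallest without V1 (−0.11) and largest without V0 (−0.31). On the FPKM scale it was −0.15.

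A further 4 ratios were chosen after the values were seen and are given as descriptions. CDC6 fragments per ORC1 fragment came to 1.83 in C0 and 1.64 in C1, against 1.33 in V0 and 1.32 in V1. CDC6 fragments per CDT1 fragment came to 2.36 in C0 and 2.25 in C1, against 1.73 in V0 and 1.55 in V1. CDC6 fragments per GMNN fragment came to 1.496 in C0 and 1.53 in C1, against 1.22 in V0 and 1.26 in V1. In these 3 ratios, each with CDC6 on top, the clofarabine libraries were the higher pair. ORC6 fragments per ORC1 fragment came to 0.458 in C0 and 0.399 in C1, against 0.306 in V0 and 0.374 in V1.

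**Figure D3:**
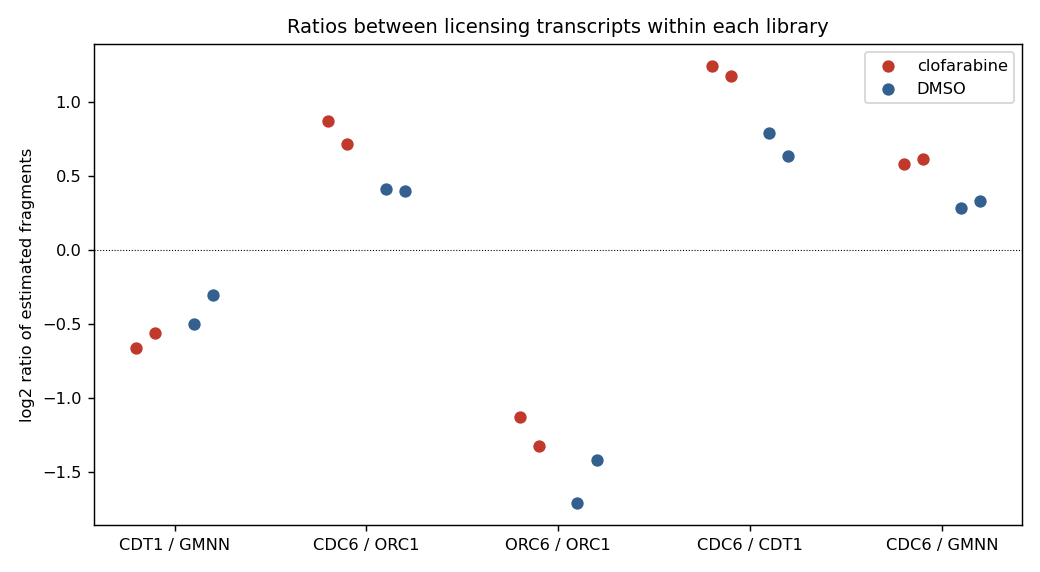
Log2 ratio of estimated fragments between pairs of licensing transcripts (vertical axis) in each library, clofarabine in red and DMSO in blue; each point is 1 library. The CDT1 to GMNN ratio is lower in both clofarabine libraries, and the 3 ratios with CDC6 on top and ORC6 to ORC1 are higher in both.

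Per transcript length, on the scale of the authors' FPKM, the 9 transcripts were far from equal in amount. GMNN was the most abundant at 197 ± 6.44 FPKM with clofarabine and 164 ± 4.94 FPKM with DMSO, and ORC4 the least at 11.5 ± 0.254 FPKM with clofarabine and 10.4 ± 0.381 FPKM with DMSO (SD, n = 2 each). The mean over the 4 libraries was 16.4 times higher for GMNN than for ORC4. CDC6 was second in all 4 libraries, at 103.5 ± 0.733 FPKM with clofarabine and 67.4 ± 1.58 FPKM with DMSO. ORC1 (57.5 FPKM with clofarabine and 49.0 FPKM with DMSO) and CDT1 (51.7 FPKM and 47.6 FPKM in the same order) followed, and their DMSO libraries overlapped. ORC6 overlapped CDT1 with clofarabine, at 51.0 ± 1.34 FPKM, and overlapped ORC5 with DMSO, at 34.5 ± 4.50 FPKM. ORC5, ORC3, ORC2 and ORC4 came next in that order, with no overlap between neighbours within either group.

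**Figure D4:**
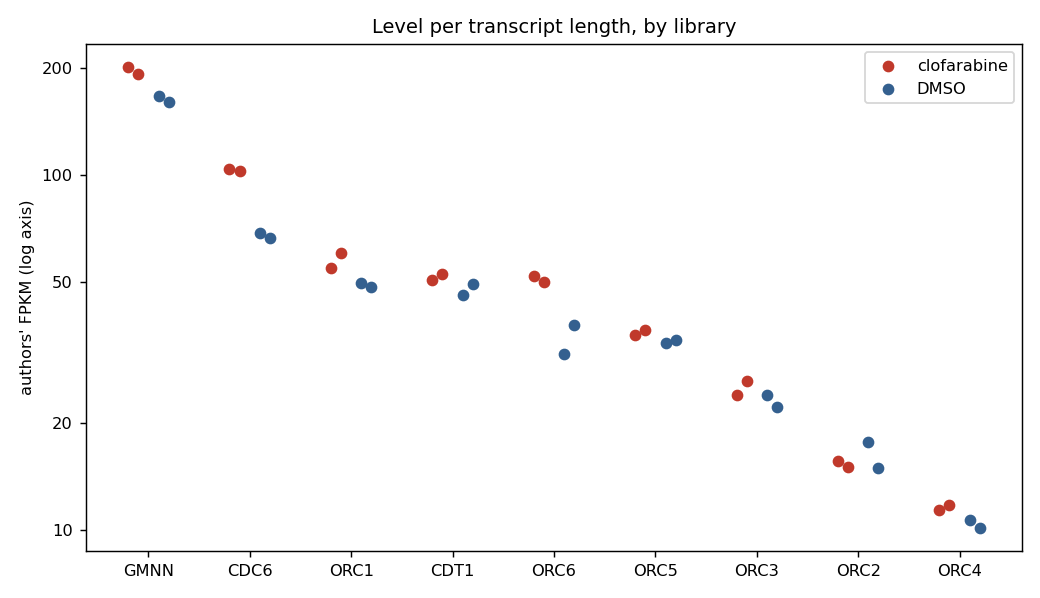
Level per transcript length of each gene in each library, as the authors' FPKM (vertical log axis), with clofarabine in red and DMSO in blue, ordered by the mean over the 4 libraries. GMNN is highest and ORC4 lowest in every library, and the groups of ORC6 lie well apart, near CDT1 with clofarabine and near ORC5 with DMSO.

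Because the 6 ORC proteins act as 1 complex, their transcripts were also set against their sum. The summed FPKM of ORC1 to ORC6 was 193 in C0 and 199.9 in C1, against 167 in V0 and 168 in V1. ORC6 made up 26.9% of that sum in C0 and 25.0% in C1, against 18.8% in V0 and 22.5% in V1. ORC1 made up 28.3% in C0 and 30.2% in C1, against 29.7% in V0 and 28.9% in V1, so that its share overlapped between the groups. ORC2 made up 8.08% in C0 and 7.52% in C1, against 10.6% in V0 and 8.92% in V1. ORC4 had the smallest share in every library, between 5.87% and 6.40%.

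The helicase that these factors load was measured next to them. All 6 MCM2 to MCM7 transcripts had a positive log2 fold change, with a median of 0.11, and none was called higher or lower. MCM6 had the smallest p, at 387 ± 3.09 CPM with clofarabine and 336 ± 14.1 CPM with DMSO (log2 fold change 0.20, edgeR adjusted p = 0.115). Of 10 tested proteins that bind ORC, CDT1 or MCM at origins or prepare their chromatin, none was called in either direction and the median log2 fold change was 0.076. SETD8, a histone H4 methyltransferase, had the smallest p (178 ± 1.06 CPM with clofarabine and 202 ± 2.93 CPM with DMSO, log2 fold change −0.19, edgeR adjusted p = 0.153).

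Among 16 genes that control the turnover of licensing proteins, 2 rose, 1 fell and 13 were not called, with a median log2 fold change of 0.025. DTL, the substrate receptor that directs CDT1 to degradation on chromatin, rose to 211 ± 3.33 CPM with clofarabine, against 132 ± 2.89 CPM with DMSO (SD, n = 2 each; log2 fold change 0.67, SE 0.067, edgeR adjusted p = 1.2e-06). PCNA, the sliding clamp on which DTL recognises CDT1, rose too, by 0.27 on the log2 scale (edgeR adjusted p = 0.025, SE 0.064). CCNF, the F-box protein cyclin F, known to direct CDC6 to degradation in G2, fell to 54.9 ± 1.70 CPM with clofarabine, against 109 ± 3.24 CPM with DMSO (log2 fold change −0.98, SE 0.078, edgeR adjusted p = 5.9e-08). Among the listed ubiquitin ligase genes, SKP2 had a log2 fold change of 0.15 and CUL4A one of 0.0024, and neither was called.

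Of 17 genes that turn licensed origins into forks, 2 rose, 0 fell and 15 were not called, with a median log2 fold change of 0.13. MCM10, which helps to activate the loaded helicase, rose to 134 ± 1.46 CPM with clofarabine, against 101 ± 7.27 CPM with DMSO (SD, n = 2 each; log2 fold change 0.41, SE 0.074, edgeR adjusted p = 0.0023). GINS2, a subunit of the active helicase, also rose, by 0.30 on the log2 scale (edgeR adjusted p = 0.035, SE 0.075). CDC7, the kinase that fires origins, had a log2 fold change of 0.062 and its activator DBF4 one of −0.16, and neither was called.

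Genes of the G1/S transition outside the licensing group and genes of G2 and mitosis were measured as the surroundings of these values. These lists, like those above, were written with earlier results of these data known, so their counts and medians are descriptions. Beside this and the preceding lists, 1.54% of all genes tested were called higher and 1.03% lower. Of 25 other G1/S genes 14 rose, 0 fell and 11 were not called, with a median log2 fold change of 0.28, above the 0.16 of the licensing genes. The leading rises by p were CCNE2 (cyclin E2, log2 fold change 1.19), MSH6 (mismatch repair, 0.43) and RRM2 (ribonucleotide reductase, 0.40), with edgeR adjusted p = 5.6e-08, 0.000345 and 0.000626 in that order. Of 29 G2/M genes 21 fell, 0 rose and 8 were not called, with a median log2 fold change of −0.42. In all 29 both clofarabine libraries stood below both DMSO libraries, as in 21.3% of all genes tested. KIF20A, AURKA and CENPA led these falls, with log2 fold changes of −1.38, −0.90 and −1.45 (edgeR adjusted p = 1.1e-08, 2.9e-08 and 6.2e-08). In RNA from whole cultures, a different number of cells in a phase and a different amount of RNA per cell cannot be told apart, and the part of this shift in the rises of CDC6, ORC6 and GMNN was not tested.

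**Figure D5:**
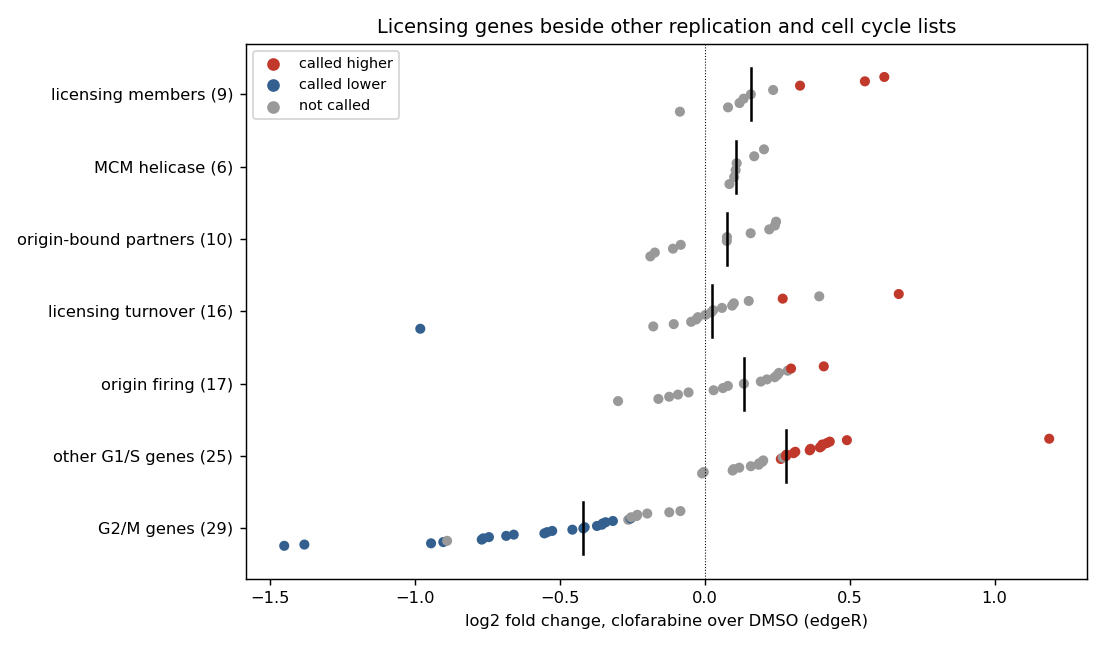
Log2 fold change of clofarabine over DMSO (horizontal axis) for each tested gene of the licensing group and of 6 related lists, with the number of genes in parentheses; red points were called higher, blue points lower and grey points not called, and black bars are list medians. The licensing median of 0.16 lies between those of the MCM helicase (0.11) and the other G1/S genes (0.28), while the G2/M genes all lie left of 0.

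The genes whose pattern over the 4 libraries was nearest to each called gene were found by the Euclidean distance between log2 CPM values centred on each gene's mean. Nearest to CDC6 were CDKN1A (distance 0.033), the inhibitor p21, then CLYBL (0.040) and MOSPD1 (0.054). CDKN1A was itself called higher (log2 fold change 0.62, edgeR adjusted p = 0.00166), while CLYBL and MOSPD1 were not called. Nearest to GMNN were DNTTIP2 (0.013), called higher with a log2 fold change of 0.33 (edgeR adjusted p = 0.0207), and CLK4 (0.015) and FAM204A (0.022), which were not called. Nearest to ORC6 were MANEAL (0.096), LHPP (0.10) and ZNF235 (0.11), all with at most 4.30 CPM in a library and none called. A small distance says only that the profiles over 4 libraries are alike.

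Over all genes, 181 were called higher and 121 lower, so that 59.9% of calls were higher. With library sizes alone as the scaling 170 were higher and 200 lower, or 45.9% higher, and CDC6, ORC6 and GMNN were called in that fit too. Fragments summed to 13175630 in C0 and 23888755 in C1, against 8370550 in V0 and 11119379 in V1. Both clofarabine libraries were thus deeper than both DMSO libraries. With all libraries thinned to 8370550 fragments, CDC6, ORC6 and GMNN were still called higher (log2 fold changes 0.62, 0.52 and 0.31), and ORC1 was called too (0.27). All 10 erythroid and megakaryocytic markers of K562 were at 1 FPKM or more in each library. Of 9 markers of other blood and tissue types 8 were under 1 FPKM in all 4, with MS4A1 and KRT5 listed at 0, and the remaining one was EPCAM, between 45.4 and 48.4 FPKM.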

How the data were processed

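RNA from 4 K562 samples was measured by RNA-seq. Per the labels' protocols, total RNA was made into directional libraries. The build hg19 and the programs Cuffdiff 2.2.1, TopHat2 2.0.13 and cutadapt 1.5 are named per the submitters' processing notes. The gene annotation was not stated in the sources used. The authors deposited, per the file headers, estimated counts of fragments per gene and library, scaled fragments (a signal equal to the counts times 1 factor per library) and FPKM values.

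Estimated counts were rounded, which changed between 391 and 457 values per library. Of 23615 genes, 11761 passed filterByExpr (minimum count 10). Libraries were scaled by TMM (factors 0.968 to 1.02) and compared in R 4.3.3 by the quasi-likelihood test of edgeR 4.0.16, with treatment as sole term, and an adjusted p under 0.05 over all genes was a call. Here a rise or fall means a call. The standard error is the log2 fold change over the square root of F. The libraries of a group differed by more than sampling noise (chi-square over its degrees of freedom 6.85 between C0 and C1, 2.81 between V0 and V1). The table numbers libraries 0 and 1 and the labels 1 and 2; they were matched in name only, and no group comparison depends on it.

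All 9 members are named, and from each list the 3 called genes of smallest p per direction, or the gene of smallest p where none was called; SKP2, CUL4A, CDC7 and DBF4 were added after their values were seen. Members, lists and alternatives were chosen with earlier results of these data known. Alternatives were other scalings and filters, DESeq2 1.42.0, limma 3.58.1 (voom, and FPKM values with pseudocounts of 1 and 0.1), the deposited scaled fragments, each library left out, a replicate block, a length trend removed by loess (span 0.3), thinning to 8370550 fragments, and thresholds of 0.01 and 0.1. Likeness used log2 CPM with a prior count of 2.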

Additional observations from a re-analysis of the deposited data

How the results depend on the processing

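Of the 9 licensing genes, 3 were called higher in 10 of the 19 alternatives, 4 in 6 (ORC1 added), 2 in 2 and 1 on the log2(FPKM + 1) scale, and 0 were called lower in any. The thresholds of 0.01 and 0.1 count among the 19 but use the main fit, so they are not separate estimates. The cause of the loss on the FPKM scales was not tested. Leaving out 1 library gave ORC2 log2 fold changes from −0.21 (without V1) to 0.029 (without V0). The number of all genes called higher was 110 with upper-quartile scaling, 298 with no filter, 90 with DESeq2, 19 on log2(FPKM + 1), 27 on log2(FPKM + 0.1), 288 with the length trend removed, 58 at a threshold of 0.01 and 283 at 0.1. The number called lower was 200 with library sizes alone, 76 with DESeq2, 37 on log2(FPKM + 1), 45 on log2(FPKM + 0.1), 198 with the length trend removed, 70 at 0.01 and 183 at 0.1. Of the related lists together, 18 genes rose and 22 fell; 4 rose and 12 fell on log2(FPKM + 1), 6 rose and 12 fell on log2(FPKM + 0.1), and 10 rose at 0.01. Leaving out 1 library gave 54 (without V1) to 447 (without C0) genes higher, 75 (without V1) to 186 (without C0) lower, and 6 (without V1) to 24 related genes higher. The group left with 1 sample was taken to have the spread of the other. With the replicate number as a block, 494 genes were higher and 302 lower, and 28 related genes were higher. Over all genes tested, the deviations of same-numbered libraries were not correlated (correlation −0.0038). This single value cannot show whether they were shared in some genes. The numbers were not taken as pairs. The order of FPKM levels was the same with 1 mean length per gene, and 3 genes in place of 4 had an E2F form with windows cut at the start. With the shallowest library at 8370550 fragments, depth limits the genes of low count most.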
